A study of Mus musculus with 8 samples.

Results

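The genes described here encode voltage-gated calcium and sodium channels, HCN pacemaker channels, the release channels of the endoplasmic reticulum (ryanodine and inositol trisphosphate receptors) and the calcium pumps SERCA and PMCA. They were chosen by name alone, as symbols beginning with Cacn, Atp2a or Atp2b, or with Scn, Hcn, Ryr or Itpr followed by a digit. Of 21761 genes in the deposited count table, 57 met the rule, and each belonged to 1 of 11 families: 10 calcium channel alpha1, 4 alpha2delta, 4 beta and 8 gamma genes, 10 sodium channel alpha and 4 beta genes, 4 HCN, 3 ryanodine receptor, 3 inositol trisphosphate receptor, 3 SERCA and 4 PMCA genes. The RNA was bound to ribosomes and purified by translating ribosome affinity purification (TRAP) from midbrain dopaminergic neurons of C57BL/6 mice. MPTP, a toxin converted in the brain to an inhibitor of mitochondrial complex I that dopaminergic neurons take up, had been injected intraperitoneally as MPTP-HCl at 30 mg/kg free base, daily for 5 days, in 4 samples. The other 4 had received saline on the same schedule, and all were collected 4 days after the last injection. The labels name neither the promoter that drove the ribosome tag nor the animals behind each library, so a p-value here reflects the spread among the libraries alone, which may be technical. The extraction protocol covers nigral and tegmental neurons together or apart without saying which applies here.

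Dopaminergic neurons of the midbrain fire on their own, without synaptic input. A slow depolarization carried by calcium, sodium and HCN currents brings them to threshold, and the calcium that enters during each cycle must be pumped back out or into the endoplasmic reticulum. L-type calcium channels with the pore subunit encoded by Cacna1d open at fairly negative voltages and are best known for this role in the substantia nigra, where the calcium load has been linked to the vulnerability of the cells. An alpha1 subunit forms the calcium pore, alpha2delta and beta subunits set its surface level and gating, and most gamma proteins of the brain serve as partners of AMPA-type glutamate receptors.

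The sequence before the start sites of the members was searched for 4 motifs, chosen after the expression values had been seen: AP-1 (TGANTCA), the cAMP response element (TGACGTCA), the TATA box (TATAAA) and the GC box (GGGCGG). Both strands were read and matches could overlap. RefSeq on GRCm38.p6 gave 55 start sites for 41 of the 57 members. The 250 bases before the start were used, and a match describes letters and not a bound site. An AP-1 match was present in 1 of the 41 members, Cacng5 (2.44%), against 7.82% of the 27025 genes with an entry. No member held the cAMP response element, present in 1.77% of genes, and TATAAA was found in 2 members, Cacna1d and Scn2a1 (4.88%, against 14.3% of genes). The GC box was found in 23 (56.1%, against 35.4% of genes). A gene counted when any of its start sites matched, with 55 sites for the 41 members and 32851 for the 27025 genes. The median GC content was 61.6% over the member start sites and 52.4% over all start sites. The part of site number and GC content in these shares was not tested. These 3 sequences are shown because Cacna1d has a pair of unlike starts and Cacng5 holds the AP-1 match. Capitals mark the matched letters, on the strand of the gene, 5′ to 3′.
Cacna1d, outer start (chr14:30491157-30491406, minus strand): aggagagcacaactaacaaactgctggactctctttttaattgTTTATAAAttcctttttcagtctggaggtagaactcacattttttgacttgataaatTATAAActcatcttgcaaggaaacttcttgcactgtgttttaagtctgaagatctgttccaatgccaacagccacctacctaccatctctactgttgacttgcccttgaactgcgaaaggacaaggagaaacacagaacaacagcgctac
Cacna1d, inner start (chr14:30353487-30353736, minus strand): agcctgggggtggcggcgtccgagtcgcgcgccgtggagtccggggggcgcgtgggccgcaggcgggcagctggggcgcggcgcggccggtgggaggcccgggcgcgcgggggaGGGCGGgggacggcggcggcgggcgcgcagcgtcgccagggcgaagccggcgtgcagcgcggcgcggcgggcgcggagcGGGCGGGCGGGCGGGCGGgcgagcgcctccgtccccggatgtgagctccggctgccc
Cacng5, outer start (chr11:107915056-107915305, minus strand): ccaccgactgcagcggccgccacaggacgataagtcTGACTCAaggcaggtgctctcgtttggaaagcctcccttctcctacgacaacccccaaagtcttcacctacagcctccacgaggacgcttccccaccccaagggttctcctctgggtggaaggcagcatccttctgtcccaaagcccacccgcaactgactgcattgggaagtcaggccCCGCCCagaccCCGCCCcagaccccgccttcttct
The outer start of Cacna1d had 39.6% GC and 3 TATAAA matches on either strand, whereas the inner start had 86.4% GC and 5 GC boxes. The counts are per gene and do not tell which start was used.

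Library totals ranged from 54192354 to 78892061 counts, and the members together took between 0.343% and 0.399% of a library. Summed markers of dopaminergic neurons reached 10860 to 12960 CPM (counts per library size after TMM scaling, in the usual unit) in MPTP and 9776 to 15980 CPM in saline. Markers of other cells were present too, and no marker was at 0 in all libraries: astrocyte markers summed to 589 to 663 CPM in MPTP and 520 to 722 CPM in saline, oligodendrocyte markers to 914 to 1049 CPM and 640 to 1316 CPM, and microglia markers to 35.6 to 44.8 CPM and 27.1 to 41.2 CPM. Markers of GABAergic neurons summed to 365.5 to 466.7 CPM in MPTP and 354.5 to 530.2 CPM in saline. Those of glutamatergic neurons summed to 237.1 to 281.4 CPM in MPTP and 263.7 to 340.9 CPM in saline. The covariate used later leaves these neurons out, and their part in the members' levels was not tested. The library saline 3 stood apart, with the lowest dopaminergic sum and the highest astrocyte, oligodendrocyte and microglia sums of the saline libraries. Over the lists, 12 of 12 astrocyte and 11 of 12 oligodendrocyte markers had a log2 fold change above 0 and 17 of 20 dopaminergic markers below 0, with none called; the part of these cells in the results was not tested beyond the covariate given later. Results that rest on saline 3 are given with and without it. In these bulk samples fewer cells of a type and less RNA per cell cannot be told apart.

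No member passed the test between MPTP and saline. edgeR's quasi-likelihood test, with p-values adjusted over all genes, was applied to 54 members, and 3 (Cacng6, Scn4a and Scn10a) had too few counts to enter it. None of the 54 was called higher and none lower, where 0.075% of the 15999 genes tested were called higher and 0.0313% lower. DESeq2 also called none of the 56 members it tested, beside 0.282% of all genes. Without adjustment 5 members had a p under 0.05, which is 9.26% of them beside 8.78% of all genes. Cacng3, Cacnb3, Atp2b4 and Cacng5 had a log2 fold change above 0 (7.41%, beside 4.28%) and Cacna1e had one below 0 (1.85%, beside 4.5%). DESeq2 gave 7 at that limit (12.5%, beside 8.86% of all genes), with Cacng8 added among 5 above (beside 4.15%) and Cacnb4 among 2 below (beside 4.71%). In the other edgeR and voom settings no member was called either. There, leaving saline 3 aside, the share of all genes called higher was 0.075% with DESeq2 size factors, upper quartile scaling or the non-neuronal covariate, 0.0611% with no filter, 0.0617% at a mean CPM of at least 5, 0.0625% with the replicate block and 0.05% with voom. The share called lower was 0.0313% with DESeq2 size factors, 0.025% with upper quartile scaling, the covariate, the block or voom, 0.0255% with no filter and 0.0353% at a mean CPM of at least 5. Without MPTP 1, 2, 3 or 4 it was 0.068%, 0.068%, 0.0678% and 0.0493% higher and 0.0247%, 0.00618%, 0.0123% and 0.0% lower, and without saline 1, 2 or 4 it was 0.0618%, 0.0677% and 0.0739% higher and 0.0%, 0.0185% and 0.0185% lower. The median log2 fold change, MPTP minus saline, was 0.011 over the members and 0.00056 over all genes, with 28 members above 0 and 26 below. The 95% interval lay within a 1.5-fold change in either direction for 40 of the 54 (74.1%), beside 62.7% of all genes. The 4 members with a fitted change beyond 1.5-fold, Atp2a1, Cacng1, Cacna1f and Cacna1s, were all under 1.5 CPM in every library. The plot of changes with their intervals shows 44 members that exceeded 1.5 CPM in at least 1 library.

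**Figure D1:**
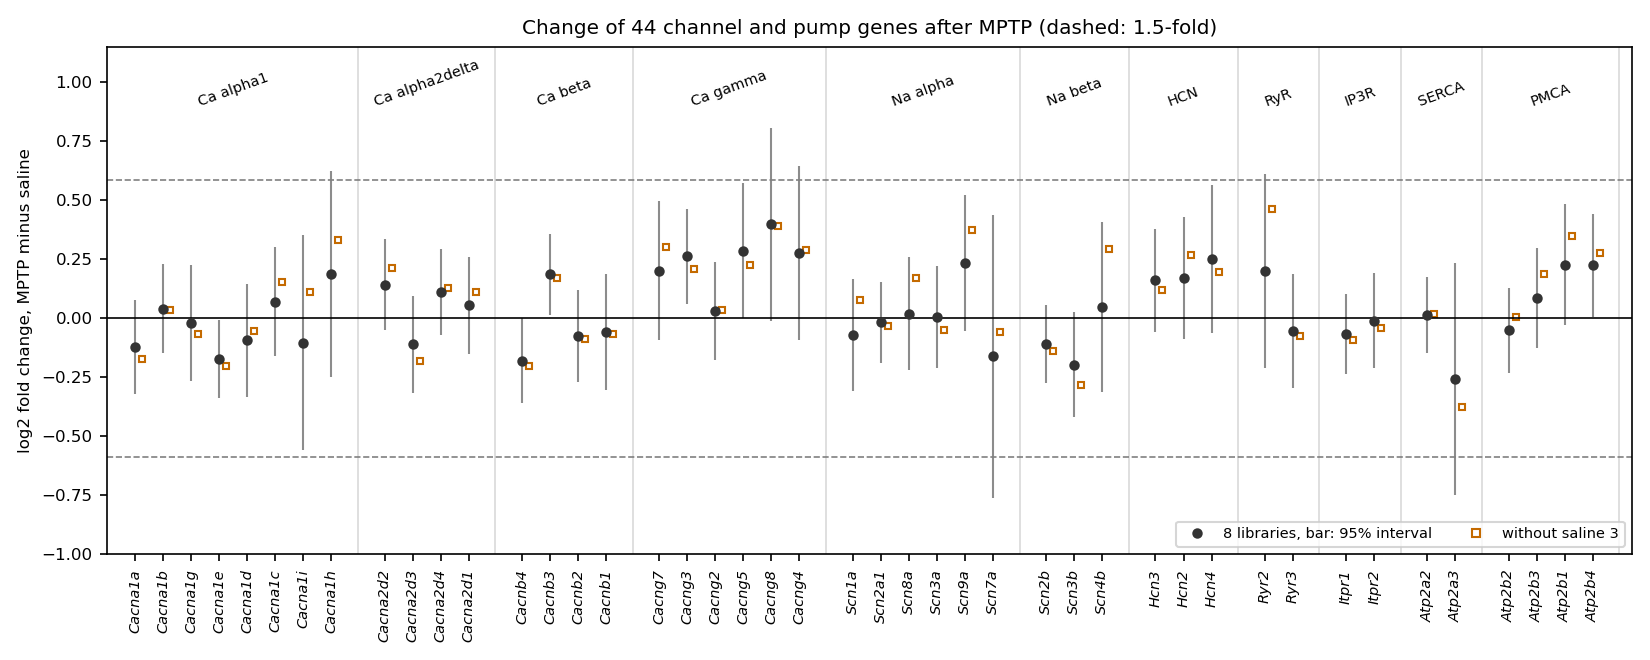
Log2 fold change (MPTP minus saline) of 44 members by family, with bars for the 95% interval from 8 libraries and open squares for the fit without saline 3; dashed lines mark a 1.5-fold change. All 44 estimates lie within the dashed lines. Ryr2, Scn4b, Cacna1i, Scn8a, Scn9a, Atp2b1 and Atp2b3 are among the genes that shift upwards without saline 3, and others, such as Scn3b, shift downwards.

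Levels were compared between genes per kilobase of the gene's merged exons (CPM per kilobase, GENCODE vM21 lengths), since longer transcripts give more reads. The order among the calcium channel pores was led by genes of the presynaptic channel types. Cacna1a, the P/Q-type pore, stood at 7.52 ± 0.805 CPM per kilobase in saline and Cacna1b, the N-type pore, at 6.45 ± 0.272 (SD, n = 4 each). Next came the T-type pore Cacna1g at 4.82 ± 0.767 and the R-type pore Cacna1e at 4.22 ± 0.210, whose saline ranges overlapped. Cacna1d was the fifth of 10 at 2.68 ± 0.343, and Cacna1c, the other L-type pore of the brain, followed at 1.78 ± 0.247. The ranges of Cacna1c and the T-type pore Cacna1i (1.59 ± 0.574) overlapped, and Cacna1h, also a T-type pore, had 0.922 ± 0.243. Cacna1f and Cacna1s, the pores of photoreceptors and skeletal muscle, were at 0.0471 and 0.0453 CPM per kilobase, with at most 71 counts in a library. With the length of the longest transcript in place of merged exons, Cacna1e moved from the fourth to the second place (7.14 CPM per kilobase), while Cacna1d stayed the fifth (3.50).

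**Figure D2:**
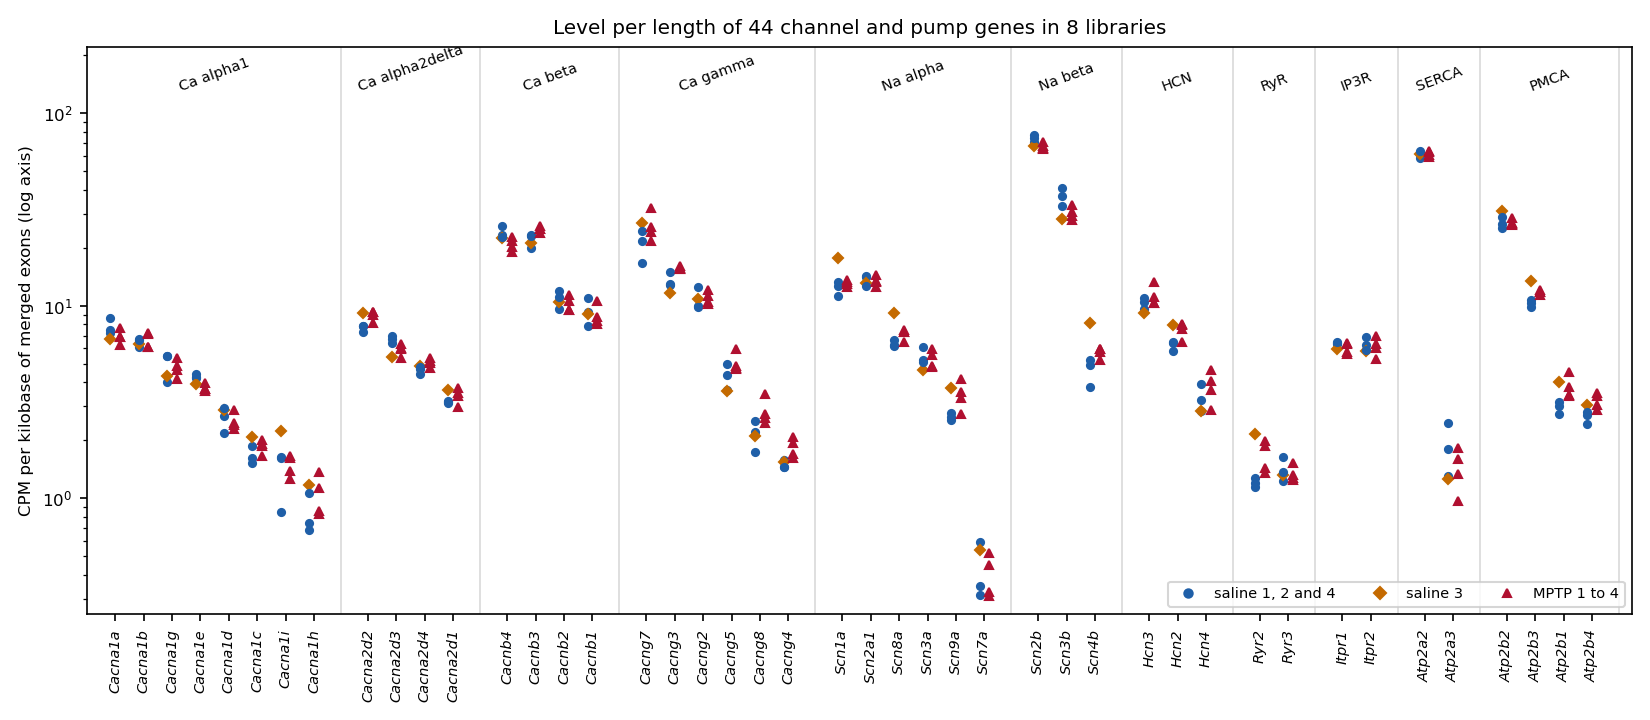
Level per length (CPM per kilobase of merged exons, log axis) of 44 members in each library, ordered within each family by the saline mean; circles are saline 1, 2 and 4, diamonds saline 3 and triangles MPTP. Scn2b and Atp2a2 are the highest, and Cacna1d sits in the middle of the calcium channel alpha1 genes.

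Cacna1d (chromosome 14, 30039939 to 30491455, minus strand of GRCm38) was measured at 33.8, 27.7, 36.4 and 37.2 CPM in saline 1 to 4 and at 31.0, 36.2, 29.1 and 30.5 CPM in MPTP 1 to 4. The groups overlapped, and saline 2 was the lowest library of all. Its log2 fold change was -0.092 (SE 0.11, 95% interval -0.33 to 0.15, edgeR adjusted p = 0.856), so a loss larger than the lower bound lay outside the interval. In its exons, 4.67% of the bases overlap Chdh on the other strand, and the counting is not stated to use strand. Cacna1c, with 37.6 ± 5.23 CPM in saline and 39.5 ± 3.14 CPM in MPTP (SD, n = 4 each), had a log2 fold change of 0.071 (adjusted p = 0.890). Per length, Cacna1d exceeded Cacna1c in all 8 libraries, 1.51-fold on average in saline and 1.22-fold by the longest transcript. The log2 ratio of Cacna1d to Cacna1c was 0.59 ± 0.18 in saline and 0.43 ± 0.12 in MPTP (SD, n = 4 each). That difference of -0.17 was within the spread (exact two-sided permutation test over 70 splits, p = 0.257, where the smallest possible is 0.0286).

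Cacna1a and Cacna1e had log2 fold changes below 0 without passing the test. The groups overlapped for both, and for Cacna1a MPTP 4 lay above saline 1, 2 and 3. Cacna1a was at 82.7, 85.3, 76.9 and 98.6 CPM in saline 1 to 4 and 78.6, 78.5, 71.2 and 87.5 CPM in MPTP 1 to 4, with a log2 fold change of -0.12 (SE 0.095, edgeR adjusted p = 0.747). Cacna1e was at 108, 107, 99.2 and 112 CPM in saline and 93.2, 93.4, 91.2 and 101 CPM in MPTP. All MPTP libraries but MPTP 4 lay below every saline library, and the log2 fold change was -0.17 (SE 0.079, unadjusted p = 0.0442, edgeR adjusted p = 0.553). Of the 10 alpha1 genes, 7 had a log2 fold change below 0 and 3 above, with a median of -0.097. With voom the split was 5 and 5, and with the non-neuronal covariate or without MPTP 4 it was 8 below and 2 above. At a mean CPM of at least 5, which removed Cacna1f and Cacna1s, 5 were below and 3 above.

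Among the auxiliary calcium channel genes, the alpha2delta genes followed the order Cacna2d2 (8.05 ± 0.807 CPM per kilobase in saline), Cacna2d3 (6.36 ± 0.666), Cacna2d4 (4.69 ± 0.187) and Cacna2d1 (3.29 ± 0.246; SD, n = 4 each), with no overlap between neighbours. By the longest transcript Cacna2d3 came first. Cacna2d2, the smallest p of the family, was at 62.3, 62.4, 73.0 and 58.0 CPM in saline and 64.5, 73.7, 70.9 and 73.4 CPM in MPTP. Saline 3 lay among the MPTP values, and the log2 fold change was 0.14 (SE 0.091, edgeR adjusted p = 0.680).

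Of the beta genes, which encode cytoplasmic subunits that carry the pore to the membrane, Cacnb4 and Cacnb3 were the most abundant, at 23.6 ± 1.57 and 21.9 ± 1.61 CPM per kilobase in saline (SD, n = 4 each). Their saline ranges overlapped, and by the longest transcript Cacnb3 came first and Cacnb4 after Cacnb2. Cacnb3 was at 80.0, 93.4, 84.8 and 92.7 CPM in saline and 99.7, 100.3, 104 and 95.2 CPM in MPTP. Every MPTP library lay above every saline library, and the log2 fold change was 0.19 (SE 0.082, unadjusted p = 0.0368, edgeR adjusted p = 0.519). Cacnb4 pointed the other way, at 209, 232, 201 and 205 CPM in saline and 195, 169, 204 and 181 CPM in MPTP. MPTP 3 alone reached into the saline range, and the log2 fold change was -0.18 (SE 0.085, adjusted p = 0.575). In the exons of Cacnb4, 16.0% of the bases overlap the gene A430018G15Rik on the other strand. Cacnb2 (10.8 ± 1.02 CPM per kilobase) and Cacnb1 (9.30 ± 1.27) had overlapping ranges and log2 fold changes of -0.073 and -0.057.

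The gamma genes had log2 fold changes above 0 in all 7 tested members, beside 50.1% of all genes, with a median of 0.28. None passed the test. Cacng1, among the 7, had only 0 to 33 counts in a library. At a mean CPM of at least 5, which removed it, all 6 remaining were above 0. Of the 7, Cacng2 (0.032) turned below 0 with the non-neuronal covariate and without MPTP 4, saline 2 or saline 4, and under DESeq2 size factors and upper quartile scaling all 7 stayed above 0. Cacng6, which the filter removed, had between 0 and 27 counts in a library and lay below 0 in the fits that kept it, at -2.40 with no filter (edgeR adjusted p = 0.595) and -2.46 with DESeq2 (adjusted p = 0.589). Cacng7 was the most abundant at 22.5 ± 4.41 CPM per kilobase in saline, before Cacng3 (13.1 ± 1.37) and Cacng2, also known as stargazin (10.8 ± 1.21), whose ranges overlapped (SD, n = 4 each). Cacng7 was at 53.1, 40.8, 65.9 and 59.8 CPM in saline and 59.1, 78.1, 52.7 and 62.5 CPM in MPTP, with overlapping groups and a log2 fold change of 0.20 (SE 0.14, edgeR adjusted p = 0.705). Cacng3, an AMPA receptor partner and the member with the smallest p of all, was at 35.6, 36.1, 32.4 and 41.5 CPM in saline and 43.8, 43.1, 43.0 and 44.7 CPM in MPTP. Its groups did not overlap, and the MPTP libraries were closer to each other than the saline ones. The log2 fold change was 0.26 (SE 0.095, 95% interval 0.062 to 0.46, unadjusted p = 0.0136, adjusted p = 0.456), 0.21 without saline 3 (adjusted p = 0.275) and 0.34 with the non-neuronal covariate (adjusted p = 0.576). Cacng4 also separated the groups, at 5.22 to 5.69 CPM in saline and 5.79 to 7.43 CPM in MPTP. Cacng3, Cacnb3 and Cacng4 were the 3 of 54 members with every MPTP library above every saline library (5.56%, beside 2.04% of all genes tested). No member had every MPTP library below, as 2.14% of all genes did, so 4.19% of all genes had no overlap in either direction.

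**Figure D3:**
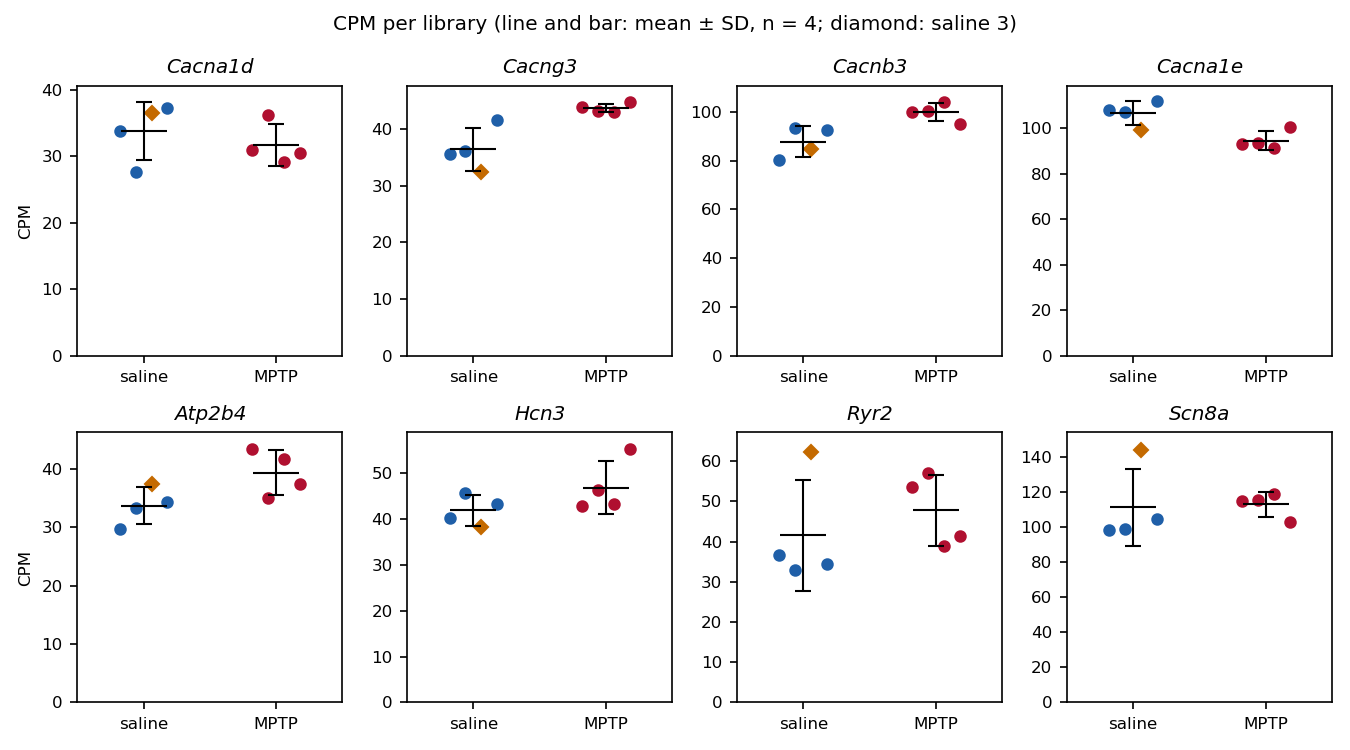
CPM of 8 members in each library, with the mean and SD of 4 libraries per group and saline 3 as a diamond; axes start at 0. Cacng3 and Cacnb3 show no overlap between groups, and saline 3 is far above the other saline libraries for Ryr2 and Scn8a.

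The sodium channel pores were dominated by 4 genes of the central nervous system. Scn1a (13.7 ± 2.79 CPM per kilobase in saline) and Scn2a1 (13.6 ± 0.814) had overlapping ranges and held 31.3% of the family level each, followed by Scn8a (7.05 ± 1.39) and Scn3a (5.27 ± 0.602; SD, n = 4 each). By the longest transcript Scn2a1 came before Scn1a. Scn9a, best known from peripheral sensory neurons, had 2.94 ± 0.547 CPM per kilobase, and the sodium-sensing Scn7a had 0.451. Scn11a, Scn10a and Scn4a, genes of sensory neurons and skeletal muscle, stood at 0.0474, 0.0456 and 0.00817 CPM per kilobase. Scn4a had 0, 0, 21 and 0 counts in MPTP 1 to 4 and 5, 9, 0 and 1 in saline 1 to 4.

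Scn1a was at 148, 126, 198 and 141 CPM in saline and 148, 151, 144 and 140 CPM in MPTP. Saline 3 exceeded every other library, and the log2 fold change of -0.070 (SE 0.11, edgeR adjusted p = 0.895) became 0.077 without saline 3 (adjusted p = 0.693) and was -0.22 with the non-neuronal covariate. Scn9a had the smallest p of the pores, at 35.6, 32.8, 47.9 and 33.9 CPM in saline and 42.6, 45.8, 53.2 and 35.2 CPM in MPTP. Its log2 fold change was 0.23 (SE 0.14, adjusted p = 0.644), 0.37 without saline 3 (unadjusted p = 0.00714, adjusted p = 0.128) and 0.092 with the non-neuronal covariate (adjusted p = 0.947). Scn2a1 and Scn3a differed least, with log2 fold changes of -0.016 and 0.0071.

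Sodium channel beta genes, which encode adhesion-type subunits that modulate gating, included the highest level per length of all members. Scn2b stood at 72.6 ± 4.17 CPM per kilobase in saline, Scn3b at 34.8 ± 5.41 and Scn4b at 5.53 ± 1.83 (SD, n = 4 each). Scn2b was at 360, 331, 315 and 346 CPM in saline and 315, 331, 304 and 305 CPM in MPTP, with overlap and a log2 fold change of -0.11 (SE 0.078, edgeR adjusted p = 0.725). Scn3b was at 180, 222, 154 and 203 CPM in saline and 160, 152, 183 and 168 CPM in MPTP. Saline 1 and saline 3 lay within the MPTP range, and the log2 fold change was -0.20 (SE 0.11, adjusted p = 0.613), -0.28 without saline 3 (unadjusted p = 0.00595, adjusted p = 0.116) and -0.035 with the non-neuronal covariate (adjusted p = 0.975). Scn4b had a log2 fold change of 0.049.

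HCN channels carry the inward current that opens on hyperpolarization. Hcn3 led at 10.1 ± 0.799 CPM per kilobase in saline, followed by Hcn2 at 6.66 ± 0.924 and Hcn4 at 3.21 ± 0.509 (SD, n = 4 each), with no overlap between neighbours and the same order in all 8 libraries. Hcn3 held between 41.3% and 52.8% of the family level in saline and between 43.9% and 49.8% in MPTP. It shares 17.1% of its exonic bases with Pklr on the other strand, so part of its level may be uncertain. Hcn3 was at 40.1, 45.7, 38.2 and 43.3 CPM in saline and 42.8, 46.2, 43.1 and 55.2 CPM in MPTP, with a log2 fold change of 0.16 (SE 0.10, edgeR adjusted p = 0.680). Hcn4, the sinoatrial pacemaker gene, was at 19.8, 17.4, 17.3 and 23.9 CPM in saline and 22.3, 28.4, 17.7 and 24.9 CPM in MPTP. The groups overlapped, and the log2 fold change was 0.25 (SE 0.15, adjusted p = 0.651). Hcn2 had a log2 fold change of 0.17 (adjusted p = 0.719), 0.27 without saline 3 (unadjusted p = 0.0372, adjusted p = 0.262) and 0.069 with the covariate (adjusted p = 0.959).

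The release channels of the endoplasmic reticulum differed in level. Itpr1 (6.31 ± 0.222 CPM per kilobase in saline) and Itpr2 (6.20 ± 0.479) overlapped, although by the longest transcript Itpr1 took 59.7% of the family level, whereas Itpr3 was at 0.0571. Ryr2 (1.44 ± 0.481) and Ryr3 (1.39 ± 0.171) overlapped as well, and the skeletal muscle gene Ryr1 was at 0.0467 (SD, n = 4 each). Itpr1 was at 116, 118, 110 and 119 CPM in saline and 116, 103, 106 and 118 CPM in MPTP, with a log2 fold change of -0.066 (SE 0.080, edgeR adjusted p = 0.851). Ryr2 was at 36.6, 33.0, 62.2 and 34.5 CPM in saline and 53.7, 57.0, 39.0 and 41.4 CPM in MPTP. Saline 3 was the highest of all libraries, and every MPTP library lay above the other 3 saline libraries. The log2 fold change of Ryr2 was 0.20 (SE 0.19, adjusted p = 0.804) with all libraries and 0.46 without saline 3 (unadjusted p = 0.00205, adjusted p = 0.0731), the smallest adjusted p of any member in the 16 alternative fits. With a score of astrocyte, oligodendrocyte, microglia and endothelial markers as a covariate it was -0.051 (adjusted p = 0.973). The score was 2.55 to 2.88 in MPTP and 2.04 to 2.42 in saline 1, 2 and 4, but 3.01 in saline 3. Apart from saline 3 the score followed treatment, so the covariate fits of all genes cannot tell cell content and treatment apart.

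Of the pumps that clear calcium, SERCA was represented almost entirely by Atp2a2, the housekeeping form, at 60.9 ± 2.23 CPM per kilobase in saline (SD, n = 4) and 96.2% to 97.8% of the family level there. Atp2a2 was at 355, 367, 374 and 387 CPM in saline and 358, 382, 388 and 369 CPM in MPTP. Its log2 fold change of 0.015 had a 95% interval of -0.15 to 0.18 (edgeR adjusted p = 0.973). Atp2a3 was at 1.71 ± 0.559 CPM per kilobase, and the muscle gene Atp2a1 had only 6 to 57 counts in a library. Its counts were 13, 57, 53 and 14 in MPTP and 9, 6, 21 and 6 in saline, a log2 fold change of 1.49 (SE 0.78, edgeR adjusted p = 0.606), and 21.9% of its exonic bases overlap Rabep2 on the other strand.

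The plasma membrane pumps were led by Atp2b2 at 28.0 ± 2.58 CPM per kilobase in saline, then Atp2b3 at 11.1 ± 1.60, Atp2b1 at 3.23 ± 0.546 and Atp2b4 at 2.75 ± 0.258, the last pair with overlapping ranges (SD, n = 4 each). Atp2b2 was at 335, 319, 393 and 364 CPM in saline and 359, 335, 337 and 331 CPM in MPTP, with a log2 fold change of -0.051 (SE 0.084, edgeR adjusted p = 0.898). Atp2b4, widely expressed outside the brain, was at 29.7, 33.4, 37.4 and 34.4 CPM in saline and 43.4, 35.0, 41.8 and 37.4 CPM in MPTP. The groups overlapped, and the log2 fold change was 0.22 (SE 0.10, unadjusted p = 0.0451, adjusted p = 0.555). Atp2b1 had a log2 fold change of 0.23 (adjusted p = 0.607) and Atp2b3 of 0.085. The share of Atp2b2 in the PMCA level was 60.36% to 64.52% in saline and 57.52% to 60.32% in MPTP. By merged exons, Atp2b2 was the only one of the 11 family leaders whose share did not overlap between the groups. The gap was narrow, and by the longest transcript MPTP 1 lay above saline 3, so the groups overlapped. Atp2b2 was singled out after its values were seen and was not tested. How often such shares separate over all genes was not counted. Genes that were not leaders could separate too. Cacnb3, the leader of the beta genes only by the longest transcript, held on average 33.35% of the beta level in saline and 38.32% in MPTP. Its shares did not overlap either, and this was not tested.

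**Figure D4:**
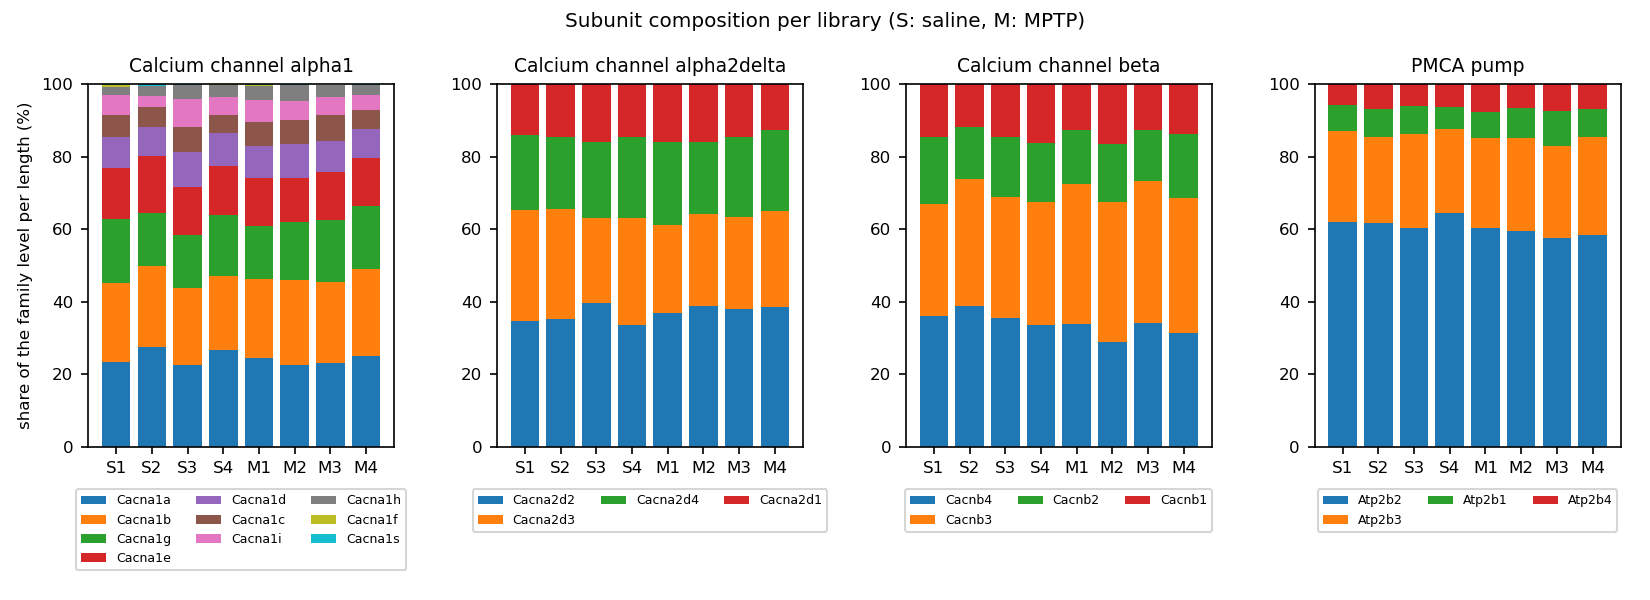
Share of each gene (percent) in the summed level per length of its family, in saline (S) and MPTP (M) libraries 1 to 4, for calcium channel alpha1, alpha2delta, beta and PMCA genes. Cacna1a stands at 22.5% to 27.4% of the alpha1 level and Atp2b2 at 57.5% to 64.5% of the PMCA level.

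Saline 3 was the extreme library for many members. It was the highest of 8 for 11 of the 54 tested members (20.4%, beside 13.9% of all genes tested), among them Ryr1, Ryr2, Itpr3, Atp2b2, Atp2b3, Scn1a, Scn4b, Scn8a, Cacna1c and Cacna1i. It was the lowest for 5 (9.26%, beside 13.0% of all genes), namely Hcn3, Hcn4, Cacng3, Cacng5 and Scn3a. Scn4b was at 40.4 CPM in saline 3 and at 18.9 to 26.1 CPM in saline 1, 2 and 4, and Cacna1i at 22.2 against 8.35 to 16.2 CPM. The same library held 1316 CPM of summed oligodendrocyte markers and 530 CPM of summed GABAergic markers, the highest of all 8 in each case, and their part in these members' levels was not tested. Without saline 3 no member passed the test either, beside 0.853% of all genes called higher and 0.983% lower. With an unadjusted p under 0.05 there were 15 (27.8%, beside 16.9% of all genes), 12 above (beside 8.68%) and 3 below saline (beside 8.25%), and the median over members was 0.083. The 12 included Hcn2, Ryr2, Scn4b, Scn9a, Cacna2d2, Cacng3, Cacng7, Atp2a1, Atp2b1, Atp2b3 and Atp2b4, and the 3 were Cacna1e, Cacnb4 and Scn3b. With all libraries and the non-neuronal covariate, no member passed and the median was -0.018.

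The wider calcium and sodium handling machinery was read from 11 lists of 128 symbols, of which 123 were in the table and 120 were tested. None was called in either direction, and 18 had an unadjusted p under 0.05 (15.0%, beside 8.78% of all genes), with a median log2 fold change of -0.0060. Camk4, a calcium-activated nuclear kinase, had -0.43 (edgeR adjusted p = 0.321) and Ppp3r1, the regulatory subunit of calcineurin, -0.31 (adjusted p = 0.392), in a list with 5 of 17 genes above 0. Pex5l, which encodes the HCN partner TRIP8b, was at 205 ± 13.5 CPM in saline and 174 ± 9.39 CPM in MPTP (SD, n = 4 each, log2 fold change -0.24, adjusted p = 0.431), with no overlap between the groups. Caln1, a neuronal calcium-binding protein, also separated the groups at a log2 fold change of -0.35 (adjusted p = 0.321). Camk4, Ppp3r1 and Casq2 (0.416 CPM on average in saline) had every MPTP library below every saline library too. Over all genes tested 2.14% did so, and the share over the lists was not counted. Micu3, a regulator of the mitochondrial calcium uniporter, had -0.31 (adjusted p = 0.415), and Fgf13, a partner of sodium channels, had -0.46 (adjusted p = 0.488). Without saline 3, Micu3 (edgeR adjusted p = 0.0372), Caln1 (0.0405) and Fgf13 (0.0359) were called lower. They were the 3 of the 120 that passed there, beside 0.983% of all genes called lower and 1.84% in either direction. In that fit 3 of the 20 dopaminergic markers, Ddc, Aldh1a1 and Slc6a3, were called lower as well. The part of cell content in these changes was not tested.

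Other lists had no called gene. Of the exchangers that swap sodium for calcium, 3 of 8 were above 0. Slc24a1 had the smallest p of them, at -2.71 (edgeR adjusted p = 0.415) on a level of 0.821 ± 0.808 CPM in saline and 0.123 ± 0.0742 CPM in MPTP (SD, n = 4 each), and Slc8a2 followed at 0.30 (adjusted p = 0.518). Of the store-operated entry genes 8 of 12 were above 0, with Saraf at 0.17 (adjusted p = 0.606). The sodium leak channel partners Unc80 and Unc79 had -0.13 and 0.13. The ryanodine receptor regulator Fkbp1b had -0.23 (adjusted p = 0.475) and the junctional protein gene Jph3 0.19 (adjusted p = 0.557), in a list with 4 of 15 above 0. Rims2, a scaffold that binds calcium channels at release sites, had 0.22 (adjusted p = 0.610), and Atp1b2, a sodium pump subunit, 0.24 (adjusted p = 0.606).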

How the data were processed

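Raw counts for 21761 genes in 8 libraries were deposited, and every column matched 1 sample by title. TopHat2 2.0.8 and mm10 are named in the submitters' processing notes. What counted the reads, on which annotation and by which strand rule is not given in the sources used here. The cDNA kit, per the labels' protocols, marks no strand, and libraries were sequenced in pairs that are not named, so run and treatment cannot be told apart if runs followed the groups. By Entrez identifier, 27 symbols stored as dates were restored, and 90 genes without a symbol (0.0505% to 0.056% of counts) kept their identifier.

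Counts were tested with edgeR 4.0.16 in R 4.3.3 (TMM, filterByExpr by group, robust quasi-likelihood F-test, no covariate, Benjamini-Hochberg threshold 0.05 over 15999 genes). SE is the size of the log2 fold change over the root of F. The prior count in log2 CPM was 2. Lengths and positions are from GENCODE vM21 on GRCm38, promoters from RefSeq on GRCm38.p6. Per-length levels assume reads along the whole gene model. Interval and test cover the spread between libraries, without molecular identifiers. Within each group, no pair of libraries agreed within sampling noise (chi-square per gene 32.0 to 96.2).

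On simulated counts for 15842 genes the test recovered 56% of genes changed 1.5-fold and 72% of those changed 2-fold, with 9 of 163 calls false.

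The members, lists and motifs were chosen with earlier results of these data known. All members could be named. Full values went to Cacna1d and, per family, the most abundant gene and the smallest p. From each other list up to 2 genes with the smallest p were named. Alternatives were DESeq2 1.42.0, its size factors, upper quartile scaling, limma 3.58.1 voom with sample weights, other filters, the replicate number as a block, a non-neuronal covariate, each library left out, and another length. Some single-gene results are left out of the text and plots.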

Additional observations from a re-analysis of the deposited data

Results flagged for a closer look

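In each group of 4 libraries, Dixon's test at the 95% level asked whether the highest or lowest library lay far from the others. It marked 6 of 102 groups, and chance marks about 5% of groups. In 3 of the 6 the library was saline 3. It held 62.2 CPM of Ryr2 (others in saline 33.0 to 36.6), 144 CPM of Scn8a (97.9 to 104) and 45.4 CPM of Cacna2d1 (39.0 to 39.7). MPTP 1 held 22.9 CPM of Cacng5 (others in MPTP 18.1 to 18.7) and 0.244 CPM of Ryr1 (0.900 to 1.03). Saline 4 held 0.571 CPM of Scn11a (others in saline 0.165 to 0.199).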

How the results depend on the processing

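No member was called in any of the 16 alternative fits. Leaving out 1 library moved the median log2 fold change of the members between -0.0046 and 0.083, the latter without saline 3. Leaving out 1 library gave log2 fold changes of -0.095 to 0.0053 for Atp2b2, -0.0023 to 0.040 for Atp2a2 and -0.15 to 0.077 for Scn1a. Of 319 alternative values for the 20 genes given in full, 6 changed sign: Atp2b2 (0.0053) and Scn1a (0.077) without saline 3, Ryr2 with the non-neuronal covariate (-0.051), and Atp2a2 with voom (-6.2e-05), without MPTP 3 (-0.0023) and without saline 1 (-0.0018). The cause of these changes was not tested. With the replicate number as a block no member was called (10 genes higher and 4 lower overall), and the difference in the ratio of Cacna1d to Cacna1c had an exact two-sided sign-flip p = 0.125, the smallest that 4 pairs can give, with all 4 same-numbered differences below 0. Same-numbered libraries did not deviate together (correlations of deviations -0.1165 to 0.0388), so the number was not read as a pairing. Without single libraries the ratio difference ranged from -0.2036 to -0.0745. Over all genes, DESeq2 called 24 higher and 31 lower, edgeR without saline 3 138 and 159, a mean CPM of at least 5 7 and 4, without MPTP 4 8 and 0, and without saline 1 10 and 0, against 12 and 5. By the longest transcript, 13 of 20 levels moved by over 1 SD, 8 of 11 families kept their leader and 45 of 57 members their place.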
